A study of Homo sapiens with 8 samples.

Results

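The stanniocalcins STC1 and STC2 were followed in normal IMR90 fibroblasts, a human lung fibroblast line, that received medium conditioned by senescent cells. Both were found as the 2 rows of the count table that carry these symbols, of 27696 rows in all, and both were among the 13798 genes that passed the filter on low counts. STC1 was chosen for measured values, namely its steep and repeatable rise at D10 in these libraries. Its levels and changes are therefore a description, and no test of STC1 is given. STC2 was taken as the other stanniocalcin and was tested among all genes.

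The medium came from IMR90 ER:RAS fibroblasts, which carry an oncogenic RAS fused to an estrogen receptor domain and enter senescence when 4-OHT (4-hydroxytamoxifen) switches it on. It was collected at day 0, 4, 7 or 10 of 4-OHT and left on the recipients for 3 days, and groups are called D0 to D10 after that day (D0, D4, D7, D10). The recipients had no ER:RAS and every group received conditioned medium, D0 included, so D0 stands for medium of uninduced donor cells and not for fresh medium. By the study's methods, medium was conditioned without serum and supplemented with a little serum before use. Each group has 2 libraries from 2 independent experiments, named experiment 1 and experiment 2, which gives 8 libraries of poly(A) RNA. Total counts per library were between 11708193 and 13395912.

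Stanniocalcins are secreted glycoproteins that form homodimers. They were discovered as hormones that limit calcium uptake in fish, while in mammals they act mainly on neighbouring cells. Both mammalian proteins bind and inhibit the protease PAPP-A, which cleaves IGF-binding proteins and so frees insulin-like growth factors. STC2 is a known target of ATF4, the transcription factor of the integrated stress response, and both genes respond to low oxygen in many cell types.

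On GRCh38, in GENCODE 29, STC1 (ENSG00000159167.11) lies on the minus strand of chromosome 8 between 23841915 and 23854807, with 4149 bases of exon. STC2 (ENSG00000113739.10) lies on the minus strand of chromosome 5 between 173314713 and 173329503, with 6128 bases of exon. No other annotated gene overlapped either of them, and 0 of their 50-base exon words occurred in another gene. Counts of each are thus not shared with a paralogue or an antisense partner in this annotation.

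STC1 was higher at every step of the medium in both experiments. Recipients of D0 medium gave 734 and 613 raw counts of it in experiments 1 and 2. Recipients of D4 medium gave 3438 and 4810, those of D7 medium 6527 and 6393, and those of D10 medium 18488 and 27535. For the lowest of these, 613 reads, the exact 95% Poisson interval ran from 565 to 664, which covers counting error only.

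Expressed as CPM, the counts scaled by normalized library size, STC1 stood at 61.5 and 44.6 under D0 medium and at 267 and 359 under D4 medium. It reached 498.5 and 485.5 CPM with D7 medium and 1464 and 2172 CPM with D10 medium. The means ± SD (n = 2) were 53.1 ± 11.9, 313 ± 64.9, 492 ± 9.23 and 1818 ± 501 CPM. No library of a later medium overlapped one of an earlier medium, and the experiments were closest together at D7 and furthest apart at D10. In bulk RNA, more cells that express a gene and more RNA of it per cell cannot be told apart.

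STC2 followed another course. It had 5533 and 5880 raw counts with D0 medium, 5003 and 3839 with D4 medium, 6458 and 3054 with D7 medium, and 10124 and 10843 with D10 medium. On the CPM scale the D0 libraries had 464 and 428, the D4 libraries 388 and 286, the D7 libraries 493 and 232, and the D10 libraries 801.5 and 855. STC2 was thus abundant already under D0 medium, somewhat lower at D4 in both experiments, split between the experiments at D7, and highest at D10 in both. The means ± SD (n = 2) were 446 ± 25.2, 337 ± 72.1, 363 ± 185 and 828 ± 38.0 CPM, in the order of the media. The D4 and D7 libraries overlapped each other, and those of D7 also spanned both D0 values.

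**Figure D1:**
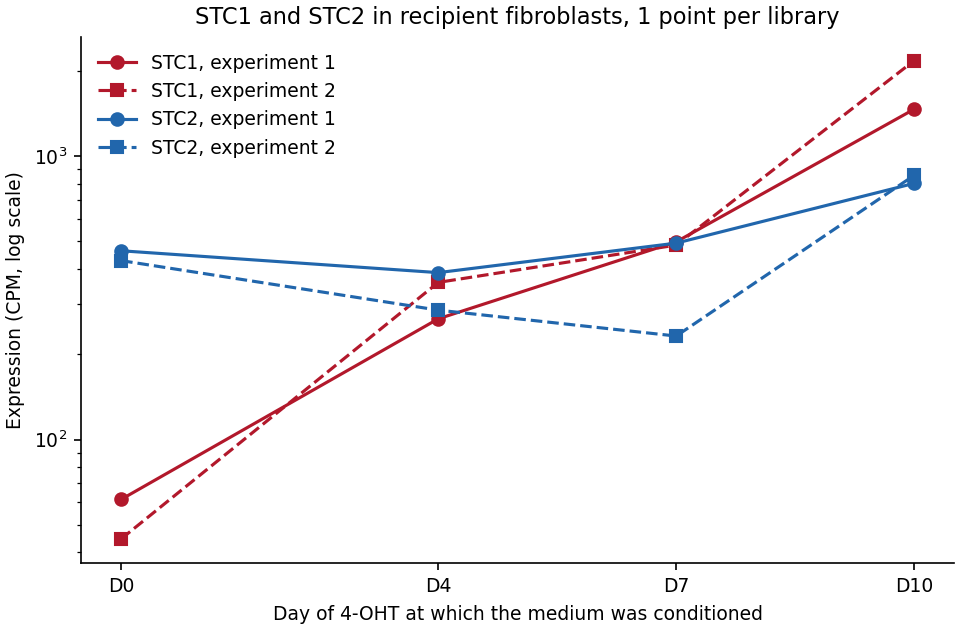
Expression of STC1 (red) and STC2 (blue) in CPM on a log axis, by the day of 4-OHT at which the medium was conditioned, with 1 point per library and a line for each experiment. STC1 is higher at every step in both experiments, from 44.6 and 61.5 CPM at D0 to 1464 and 2172 CPM at D10, while STC2 is above its D0 level in both experiments only at D10.

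Within an experiment, STC1 was higher with D4 medium than with D0 medium by a log2 change of 2.11 in experiment 1 and 3.00 in experiment 2. The change was 3.02 and 3.44 with D7 medium, and 4.57 and 5.60 with D10 medium. The D10 changes correspond to 23.8-fold and 48.7-fold. From D4 to D7 the log2 change was 0.90 and 0.44, and from D7 to D10 it was 1.55 and 2.16. The first and last steps were thus larger than the middle one in both experiments. Fitted over all 8 libraries, the log2 fold change of STC1 against D0 was 2.56 at D4, 3.21 at D7 and 5.10 at D10. All of these differences use the same D0 libraries.

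By the size of the fitted rise, STC1 was number 14 of 13798 genes with D4 medium, number 11 with D7 medium and number 23 with D10 medium. Ordered by the smaller of the 2 experiments' changes at D10, it was number 7. PTGS2 (cyclooxygenase 2) lay just before it with a log2 change of 4.79, and POU2F2, a transcription factor, just after it with 4.32. STC1 was one of 184 genes (1.33% of those tested) that were higher at each step of the medium in both experiments. Of these, 2 had D10 changes at least as large as those of STC1 in both experiments. STC1 reads made up 0.00583% and 0.00465% of all counts at D0 and 0.139% and 0.235% at D10.

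For STC2 the fitted log2 fold change against D0 was -0.40 at D4 (95% interval -1.25 to 0.44) and -0.30 at D7 (-1.14 to 0.55). Neither passed edgeR's quasi-likelihood test, in which both had a Benjamini-Hochberg adjusted p of 1 over all genes. This test called 0 genes at D4 and 0 at D7 (0.0% of 13798 on each day), where 409 and 599 genes had an unadjusted p under 0.05 and DESeq2 called 44 and 113. With the experiment as a replicate block it called 0.275% of genes at D4 and 1.25% at D7, and STC2, with adjusted p of 0.811 and 0.753, was not among them. Both D4 libraries lay below both D0 libraries for STC2, as was so for 12.6% of all genes tested.

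At D10, STC2 had a log2 fold change of 0.89 (SE 0.37, 95% interval 0.044 to 1.74), or 1.86-fold with an interval of 1.03 to 3.35. Within experiments the log2 change was 0.79 and 1.00, higher in both of 2, and both D10 libraries lay above both D0 libraries, as did those of 15.0% of genes tested. The unadjusted p of edgeR's quasi-likelihood test was 0.0414 and the adjusted p 0.577, so the difference did not pass the threshold when all genes were considered. With the replicate block the log2 fold change was 0.91 (0.30 to 1.52), with an unadjusted p of 0.00851 and an adjusted p of 0.104 in edgeR. DESeq2 gave an adjusted p of 0.35. At D10 edgeR called 40 genes (0.29%), and 688 (4.99%) with the block.

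STC2 was higher at D10 than at D7 within each experiment, by a log2 change of 0.70 and 1.88, from different D7 levels to nearly equal D10 levels. Between D4 and D7 medium its log2 change was 0.35 in experiment 1 and -0.30 in experiment 2. The fitted difference was 0.10 (95% interval -0.74 to 0.95), with an adjusted p of 1 from edgeR's quasi-likelihood test. As a straight line over the day of the medium, STC2 changed by 0.0808 log2 units per day (-0.0145 to 0.176). The adjusted p of this trend in edgeR was 0.648, against 1.18% of all genes called. The replicate block gave an adjusted p of 0.337 for it.

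Relative to each other, the stanniocalcins exchanged places. Per kilobase of exon, the CPM of STC1 was 0.196 and 0.154 times that of STC2 at D0 and 1.01 and 1.85 times at D4, in experiments 1 and 2. The ratio went on to 1.49 and 3.09 at D7 and to 2.70 and 3.75 at D10. STC1 thus made up 16.4% and 13.3% of the sum of both genes per kilobase with D0 medium, 50.4% and 64.9% with D4 medium, 59.9% and 75.6% with D7 medium, and 73.0% and 79.0% with D10 medium. These shares rest on the annotated exon length of each gene, as the transcripts in use were not measured. The share of STC1 was higher at each later medium in both experiments, also from D7 to D10, when both genes were higher than before.

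**Figure D2:**
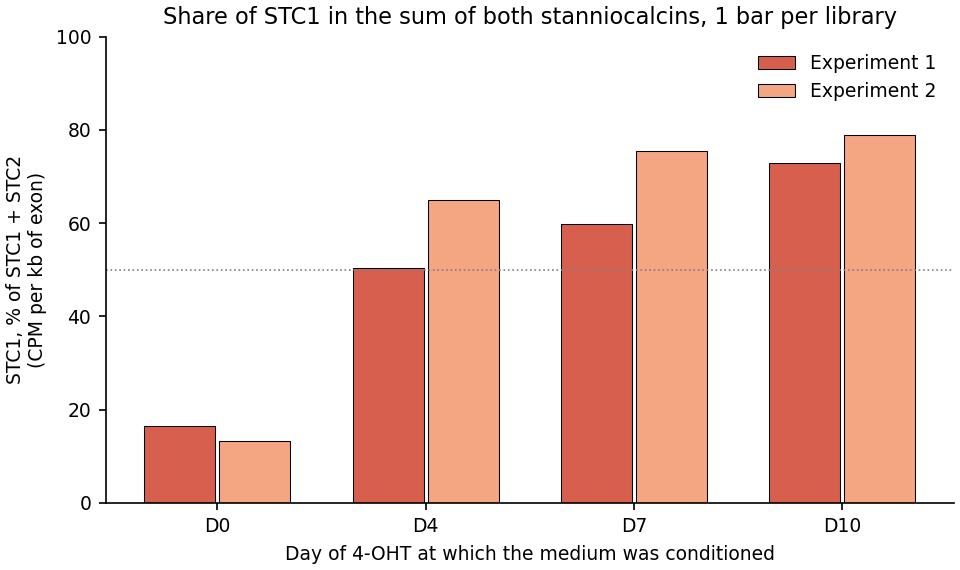
Share of STC1 in the sum of STC1 and STC2, each in CPM per kilobase of exon, for every library by the day of the medium, with a bar per experiment and a dotted line at equal levels (50%). The share is under the line in both D0 libraries (16.4% and 13.3%) and above it in the other libraries, barely so in D4 of experiment 1 (50.4%).

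Among all genes ranked by CPM per kilobase, STC1 moved from place 2828 and 3557 at D0 to place 83 and 49 at D10, of 27588 genes with a length. STC2 moved from 557 and 480 at D0 to 675 and 780 at D4, and to 269 and 180 at D10. By this measure STC2 was the more abundant message under D0 medium, and STC1 was among the most abundant messages of the recipient cells under D10 medium.

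Likeness to other genes was measured by Pearson's r of log2 CPM over the 8 libraries, which share 2 experiments and 4 media, and is given as a description. The profile most like that of STC1 was MMP1, the interstitial collagenase, at r = 0.993. It was followed by WTAPP1, a transcript that overlaps MMP1, at 0.987, PCBD2 (a pterin dehydratase that also acts as a transcriptional cofactor) at 0.983, PITPNC1 (a phosphatidylinositol transfer protein) at 0.982 and BDKRB1, the bradykinin B1 receptor, at 0.977. MMP1 had 111 and 62.4 CPM in the D0 libraries, 660 and 617 in those of D4, 1360 and 1420 in those of D7, and 3210 and 5720 in those of D10. STC1 and MMP1 thus shared higher levels already at D4, close values at D7 and a wider gap between experiments at D10 than at D7. The experiments also differed at D0, where both genes were higher in experiment 1, while at D10 both were higher in experiment 2. Since MMP1 and WTAPP1 overlap and the strand setting of the counting is not known, their reads may be shared. WTAPP1 was low, with a mean of 0 CPM at D0 and 3.08 CPM at D10, so no fold is given for it.

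The profiles most opposite to STC1 were TPD52L1, a tumour protein D52 family member, at r = -0.991, TNNT2 (cardiac troponin T) at -0.985 and LUZP2, a leucine zipper protein, at -0.983. In all, 88 genes had an r over 0.9 with STC1 and 114 an r under -0.9.

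**Figure D3:**
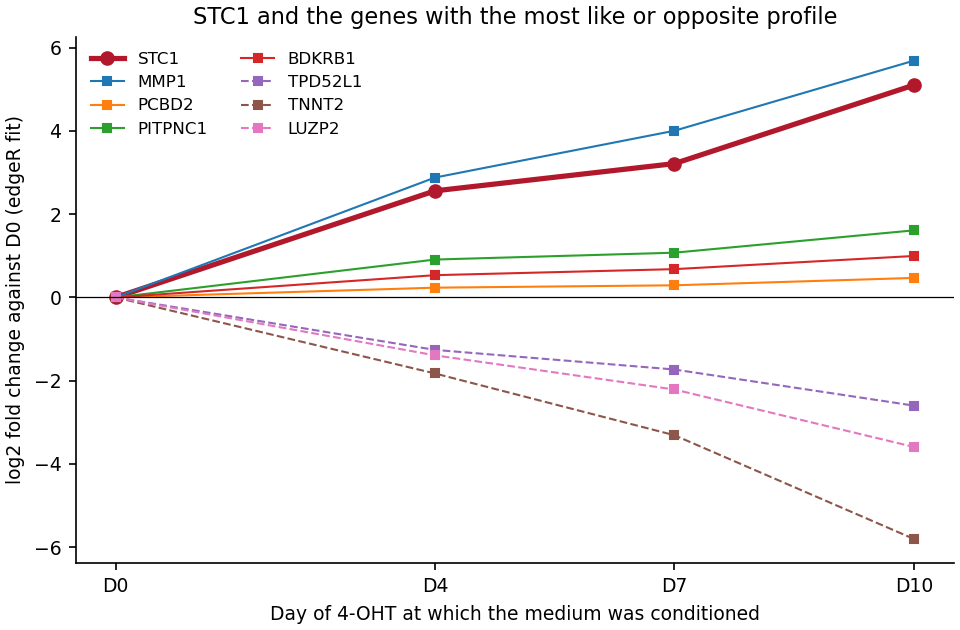
Fitted log2 fold change against D0 by the day of the medium for STC1 (thick red line), 4 of the 5 genes with the most similar profile (solid lines; WTAPP1 is left out, since it had 0 CPM at D0) and the 3 with the most opposite profile (dashed lines). The genes were picked by r, which ignores the size of a change, so the similar genes end at D10 near (MMP1, 5.69) or well below (PCBD2, 0.47) the 5.10 of STC1.

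STC2 was not among the genes most like STC1. The r between both stanniocalcins was 0.442, which placed STC2 at number 2001 of 13797 genes by likeness to STC1. Most like STC2 were QSOX2, a sulfhydryl oxidase, at 0.976, RNF215 (a RING finger protein) at 0.967, ADPGK, an ADP-dependent glucokinase, at 0.961, VNN3 (a vanin) at 0.955 and LURAP1L at 0.954. VNN3 was low, with a mean of 0.313 CPM at D0, 0.0761 CPM at D4, 0.153 CPM at D7 and 2.21 CPM at D10. It passed the filter through D10, where STC2 was highest, so its likeness to STC2 was in part fixed in advance. Most opposite to STC2 were KIAA1755 at -0.962, STMN3, a stathmin, at -0.957 and the mitochondrial tRNA gene MT-TT at -0.936. Fewer genes resembled STC2 this closely, with 27 over 0.9 and 15 under -0.9.

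Of the IGF axis, on which stanniocalcins act through PAPP-A, 14 of 16 listed genes were tested. PAPPA, the gene of PAPP-A, had 95.4 and 175 CPM in the D0 libraries, 51.4 and 134 in those of D4, 96.8 and 189 in those of D7, and 237 and 429 in those of D10. Both experiments show it lower at D4 than at D0, near its D0 level at D7 and highest at D10, with the level in experiment 2 above that in experiment 1 throughout. Its log2 fold change at D10 was 1.30 (SE 0.56), with an adjusted p of 0.627 in edgeR and 0.00436 with the replicate block, while within experiments it was 1.31 and 1.29. Like STC2, PAPPA was below D0 in both experiments at D4 and above it in both at D10, whereas STC1 was above D0 throughout.

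PAPPA2, the related protease, was at 0.746 to 3.86 CPM and had a log2 fold change of -1.19 at D10, with an adjusted p of 0.533 in edgeR. IGFBP3, the main IGF carrier of serum, stood at 411 and 478 CPM at D0 and at 173 and 44.7 CPM at D10. Its log2 fold change was -2.03, with an adjusted p of 0.354 in edgeR and 0.0188 with the replicate block. IGFBP4, the best known substrate of PAPP-A, had a mean of 2670 CPM at D0 and 3180 CPM at D10, and IGFBP5, another substrate, 12000 and 9460 CPM. Neither passed the test at D10, both with an adjusted p of 0.998 in edgeR. IGF2 had 29.4 CPM at D0 and 40.6 CPM at D10, the receptor IGF1R had 62.7 and 54.3 CPM, and IGF1 was at 0 to 0.335 CPM and was not tested.

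As a group, 0 of the 14 IGF axis genes were called at D10 by edgeR, where it called 0.29% of all genes. An unadjusted p under 0.05 in edgeR was found for 3 of the 14, and for 1095 of all 13798 genes. DESeq2 called 1 of the 14, and 383 genes in all. The replicate block called PAPPA higher and IGFBP3 lower, or 2 of 14, and 4.99% of all genes. At D4, 11 of 14 were lower than D0 in both experiments, against 28.9% of all genes, and at D10 6 were higher and 7 lower, against 31.1% and 32.3% of all genes. The median log2 fold change of the list was -0.33 at D4, -0.22 at D7 and -0.12 at D10, beside 0.01, 0.00 and 0.00 for all genes. STC2, at -0.40 on D4, was close to this median, and STC1 was far above it on each day.

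The integrated stress and unfolded protein responses, in which STC2 is an ATF4 target, gave 30 tested genes of 31. ATF4 itself had 244 and 249 CPM with D0 medium, 216 and 168 with D4 medium, 194 and 178 with D7 medium, and 205 and 388 with D10 medium. DDIT3, which encodes the stress factor CHOP, had 37.5 and 29.8 CPM with D0 medium, 35.9 and 13.0 with D4 medium, 23.4 and 10.4 with D7 medium, and 25.9 and 47.5 with D10 medium. In experiment 2 both genes were below D0 at D4 and D7 and above it at D10, as STC2 was. In experiment 1 both stayed below D0 at D10, where STC2 was above it. HSPA5, the chaperone BiP, had a log2 fold change of -0.11 with D4 medium, -0.16 with D7 medium and 0.09 with D10 medium, the last with an adjusted p of 0.998 in edgeR.

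The largest D10 differences in this list were those of GDF15, CHAC1 and ASNS. GDF15, a stress-induced cytokine, had a log2 fold change of 3.56, which was 0.83 within experiment 1 and 4.44 within experiment 2, with an adjusted p of 0.209 in edgeR and 0.0789 with the block. CHAC1, a glutathione-degrading enzyme, had 1.95 (1.28 and 2.49 within experiments), with an adjusted p of 0.0813 in edgeR and 0.0123 with the block. ASNS, asparagine synthetase, was low, at a mean of 1.07 CPM at D0 and 2.92 CPM at D10, with an adjusted p of 0.86 in edgeR. NUPR1, a stress-induced nuclear protein, had a log2 fold change of -1.15, with an adjusted p of 0.294 in edgeR and 0.0377 with the block.

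By edgeR, 0 of the 30 stress genes were called at D10, beside 0.29% of all genes. In edgeR 5 of the 30 had an unadjusted p under 0.05, beside 1095 of all 13798 genes. DESeq2 called 2 of the 30, beside 383 genes in all. The block called CHAC1 higher and NUPR1 lower, or 2 of 30, beside 4.99% of all genes, which is near the background. At D4, 17 were lower than D0 in both experiments, against 28.9% of all genes. At D7 this was so for 22, against 31.0% of all genes, while STC2 was lower in experiment 2 alone. At D10, 11 were higher in both experiments, close to the 31.1% of all genes, and 3 were lower, against 32.3%. The median log2 fold change was -0.23 at D4, -0.36 at D7 and 0.19 at D10, and that of STC2 was -0.40, -0.30 and 0.89.

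The median r of these stress genes was 0.515 with STC2 and 0.0876 with STC1. Over 0.7 with STC2 were 7 of 30, against 3.59% of all genes, and 2 of 30 were over 0.7 with STC1, against 4.75% of all genes. DDIT3, for example, had an r of 0.754 with STC2 and -0.053 with STC1. The 2 genes over 0.7 with STC1 went the other way. CHAC1 had an r of 0.885 with STC1 and 0.597 with STC2, and EDEM1 had 0.768 and 0.466. This look at whole lists was chosen after the data had been seen.

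**Figure D4:**
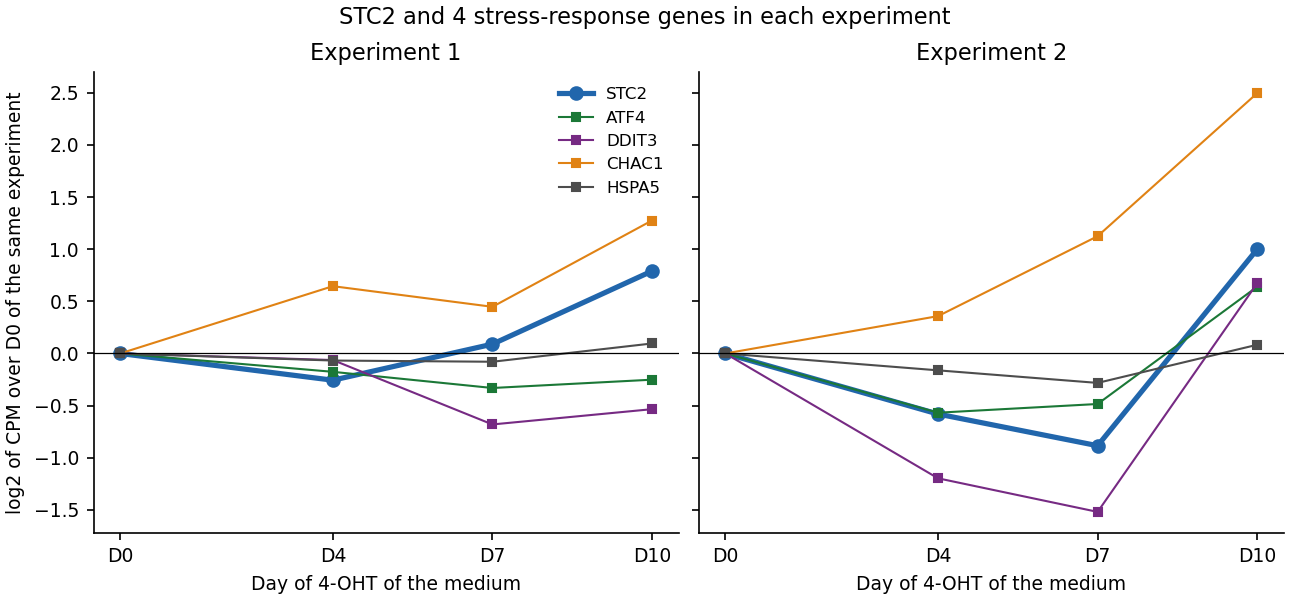
Log2 of the CPM over the D0 library of the same experiment for STC2 (thick blue line) and 4 stress-response genes, by the day of the medium, with a panel per experiment. In experiment 2, STC2, ATF4 and DDIT3 are below D0 at D4 and D7 and above it at D10, whereas in experiment 1 only STC2 and CHAC1 are clearly above D0 at D10 and HSPA5 stays near 0 in both.

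Hypoxia-response genes were tested for 25 of 27 listed. VEGFA, the angiogenic growth factor, had 62.8 and 97.5 CPM at D0 and 97.2 and 232 CPM at D10. Its log2 fold change was 1.04, with an adjusted p of 0.652 in edgeR and 0.0213 with the block. CA12, a membrane carbonic anhydrase, had a log2 fold change of 2.97, with an adjusted p of 0.0522 in edgeR and 5.0e-04 with the block. CA9, the carbonic anhydrase most tied to low oxygen, was at 0 to 0.713 CPM and was not tested. ANGPTL4, a lipase inhibitor, went opposite ways in the experiments at D10, with log2 changes of 1.44 and -0.42, where STC1 and STC2 were above D0 in both.

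The block also called ENO2 (neuronal enolase) and HK2 (hexokinase 2), with log2 fold changes of 1.04 and 0.79, which makes 4 of 25 against 4.99% of all genes. Without it edgeR called 0 of the 25 at D10, against 0.29% of all genes. In edgeR 3 of the 25 had an unadjusted p under 0.05, against 1095 of all 13798 genes. DESeq2 called 2 of the 25, against 383 genes in all. At D10, 9 were higher than D0 in both experiments and 5 lower, where 31.1% and 32.3% of all genes were, and the median log2 fold change was 0.20, against 5.10 for STC1 and 0.89 for STC2. The median r with STC1 was 0.117 and that with STC2 was 0.351. Over 0.7 with STC1 were 3 of 25 (ENO2 at 0.917, CA12 at 0.848 and HK2 at 0.844), against 4.75% of all genes. Over 0.7 with STC2 were 4 of 25 (DDIT4, MXI1, HK2 and PFKFB4), against 3.59% of all genes. ENO2, CA12 and HK2 were thus the hypoxia genes nearest to STC1 in profile, while most of the list was not close to it.

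Calcium and phosphate handling, the function for which stanniocalcins were first known, gave 20 tested genes of 32. SLC20A1, a phosphate importer, had 198 and 212 CPM in the D0 libraries, 383 and 487 in those of D4, 461 and 470 in those of D7, and 474 and 212 in those of D10. It was thus above D0 in both experiments at D4 and D7, and in experiment 1 alone at D10. ATP2B1, a plasma membrane calcium pump, had a log2 fold change of 1.31 at D10, with an adjusted p of 0.767 in edgeR and 0.103 with the block. STIM1, the calcium sensor of the endoplasmic reticulum, had -0.38 and CALCRL, the receptor of the calcitonin gene-related family, -0.70, both with an adjusted p of 0.998 in edgeR. CALCRL was low, at 0.152 to 0.873 CPM.

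At D10 edgeR called 0 of these 20 genes, as did the block and DESeq2, and 0 had an unadjusted p under 0.05. In both experiments 6 were higher and 6 lower than D0, much as among all genes (31.1% and 32.3%), and the median log2 fold change was 0.00. None of the 20 had an r over 0.7 with STC1 or with STC2.

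**Figure D5:**
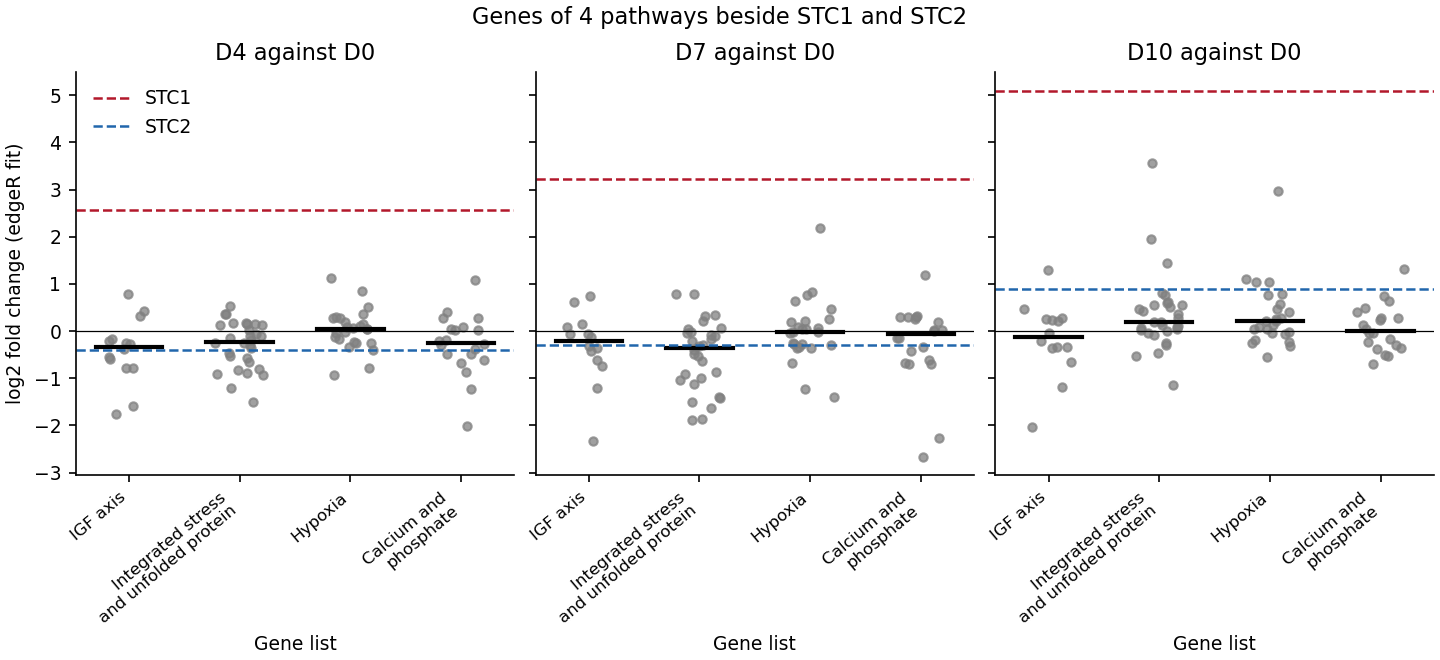
Fitted log2 fold change against D0 at D4, D7 and D10 for every tested gene (grey points) of 4 lists, with the list median as a black bar and STC1 and STC2 as dashed lines. STC1 is above every point on each day, while STC2, at -0.40, -0.30 and 0.89, is near the list medians at D4 and D7 and above them at D10.

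A list of inflammatory secreted factors, with 16 of 20 tested, gives the scale of the response to the D10 medium. All 16 tested genes were higher than D0 in both experiments at D10, against 31.1% of all genes, with a median log2 fold change of 6.22. Of these, IL1A, IL1B, CXCL3, CXCL5 and CCL20 had at most 4 counts in any library before D10 and passed the filter through D10. CXCL1 and CCL7, with at most 10 and 11 counts in any library before D10, also needed D10 libraries to pass it. The rise of all these genes was thus fixed in advance, and the 16 of 16 and the median are in part a result of the filter. With the 6 genes that had at most 3 counts in each D0 library set to their lower bounds, against a floor of 3 counts per library, the median was 5.43. CXCL1, IL1B and MMP1 were called by edgeR, against 0.29% of all genes, but CXCL1 and IL1B passed the filter through D10. With at least 10 counts in every library, 1 gene of the list was called. With the block 15 were called, against 4.99% of all genes, and 15 by DESeq2, which called 383 genes in all. The calls of the block include every listed gene that passed the filter through D10. The list holds genes that the study follows in these libraries and is not independent evidence of its direction. Its median r was 0.756 with STC1, with 12 of 16 over 0.7, against 4.75% of all genes. With STC2 the median r was 0.701, with 8 of 16 over 0.7, against 3.59% of all genes. STC1 was itself chosen for its rise at D10, so a high r with genes high at D10 was in part fixed in advance. STC2 was highest at D10 too, so its r with genes that passed the filter through D10 was also in part fixed. IL1A, IL1B, CXCL1, CXCL3 and CXCL5 are such genes among its 8 over 0.7. At D4, however, the list's median log2 fold change was 0.40, where STC1 had 2.56 and MMP1 2.88. Of its 16 genes, 9 were higher than D0 in both experiments at D4, against 29.8% of all genes, and 3 were lower, against 28.9%. The directions of IL1A, IL1B, CXCL3 and CXCL5 rest on at most 4 counts per library at D0 and D4. The list's D4 median and these counts of genes rest in part on them. Among the lower was IL6, at 5.03 and 10.2 CPM with D0 medium and 3.18 and 9.47 CPM with D4 medium. CXCL8 was at 1.01 and 2.77 CPM with D0 medium and 0.931 and 4.85 CPM with D4 medium.

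The genes nearest to STC1 and STC2 on the chromosome did not share their levels. AC012574.1, 52.4 kb from STC1, had at most 1 count in any library, and ADAM28, a metalloprotease 439 kb away on the other side, had 2 to 8 counts and 29 in D10 of experiment 2. Beside STC2, AC016573.1 had at most 1 count. BNIP1, a vesicle fusion protein 150 kb from STC2, had a log2 fold change of 0.02 at D10, with an adjusted p of 0.998 in edgeR.

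The RefSeq window around the start of STC2 (chr5:173328365-173328664, GRCh38.p14, minus strand) lies within the first exon, in the 5′ untranslated part, of the longest GENCODE 29 transcript of STC2, whose annotated start is further upstream. It had a GC content of 64.0%, beside a median of 58.7% over 35116 windows of the same length. It was searched on both strands for the hypoxia core ACGTG, present in 21.4% of all windows, the E-box CACGTG (7.26%), which contains that core, the ATF4 composite site TGATGNAA (3.62%), the AP-1 site TGANTCA (7.71%), the SP1 site GGGCGG (45.0%) and the NF-kB site (11.3%). None of these was found, which says only that these letters are not in this window, and the sequence before the GENCODE start was not searched.

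The recipient libraries carried fibroblast RNA, with all 13 listed fibroblast markers detected. Their summed level was 46700 to 63700 CPM in 7 libraries and 27500 CPM in D10 of experiment 2, the library in which STC1 and STC2 were highest. The 11 markers of other cell types in the table summed to 44.9 to 124 CPM, and 3 to 7 of them were at 0. Most of this sum was TEK, at 40.4 to 120 CPM, and no other of these markers was above 2.68 CPM. The part of these differences in the STC1 and STC2 values was not tested. Without that library the fitted log2 fold change at D10 was 4.79 for STC1 and 0.85 for STC2, which was again not called by edgeR (adjusted p = 0.999). ACTA2, smooth muscle actin, went from 1350 and 1160 CPM at D0 to 225 and 145 CPM at D10. HRAS, a RAS gene related to the donor cells' ER:RAS construct, was at 33.2 to 66.1 CPM in all libraries with a log2 fold change of -0.18 at D10, and ESR1 had 0 to 4 counts.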

How the data were processed

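Poly(A) RNA of recipient IMR90 fibroblasts was sequenced in 8 libraries. The deposited table holds raw counts per gene and columns of RPM. The RPM values that the authors deposited equal the counts scaled to each library's total within 0.005, and only the counts were tested. The submitters' processing notes name STAR 2.5, DESeq2 and GRCh38. The counting tool, its annotation and its strand setting are not given in the sources used here. A column headed DO was taken as D0 replicate 1. GENCODE 29 holds 27588 (99.6%) of the 27696 identifiers.

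Counts were filtered with edgeR's filterByExpr (minimum count 10), scaled with TMM (factors 0.948 to 1.08) and fitted by group over all 8 libraries with edgeR 4.0.16 (glmQLFit and glmQLFTest, R 4.3.3). P-values were two-sided, with Benjamini-Hochberg adjustment and a threshold of 0.05, and 95% intervals come from the same fit. They measure the spread between 2 independent experiments and ignore that the libraries are paired by experiment. Among the fits, only the replicate block uses this pairing. A rank or permutation test of 2 against 2 libraries cannot give a p under 0.333 and was not used. The prior count for log2 CPM was 2. Alternatives were DESeq2's size factors, total counts only, DESeq2 1.42.0, the experiment as a replicate block, only the groups compared, omitting the filter, requiring 10 counts in each library, leaving out each library and, for fold changes only, the deposited RPM. The common dispersion was 0.0792, and 0.0242 with the block.

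The replicate numbers pair the libraries: the methods describe 2 independent experiments, and libraries of the same number deviated together from the mean of their group (r across genes from 0.418 to 0.722 in all 6 pairs of groups). Genes are not independent replicates.

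Named genes are both stanniocalcins, key members of each list, members past the threshold, the 3 members of a list with the largest D10 change, the nearest genes on the chromosome, the 5 most like and 3 most opposite genes, and genes the study names. Members and lists were chosen with earlier results of these data known. The fit was tested on simulated data. Promoter windows are those of RefSeq, and 1 of the 2 genes matched. Figures were drawn with Python 3.11.15.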

Additional observations from a re-analysis of the deposited data

Results flagged for a closer look

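STC2 under D7 medium went opposite ways in the 2 independent experiments. Its log2 change from D0 was 0.089 in experiment 1 and -0.88 in experiment 2. Each value rests on 1 library against 1, and the difference between the experiments was not tested. Raw counts of STC2 were 6458 and 3054 in these D7 libraries, far above the floor of 3 counts, so that counting error is small beside the difference. STC1 had 6527 and 6393 counts in the same libraries.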

How the results depend on the processing

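STC1 kept its direction at D4, D7 and D10 and from D4 to D7 in all 16 alternatives. At D10 this was fixed in advance, since STC1 was chosen for a large rise there in both experiments. Leaving out 1 library at a time gave log2 fold changes of 2.33 to 2.81 at D4, 3.00 to 3.46 at D7, 4.79 to 5.37 at D10 and 0.464 to 0.881 from D4 to D7. STC2 was called by none of its alternatives that give a test, with an adjusted p of 0.104 (the replicate block) to 1 at D10, 0.811 to 1 at D4, 0.753 to 1 at D7, 0.954 to 1 between D4 and D7, and 0.337 to 0.96 for the trend. Leaving out 1 library gave 0.832 to 0.957 at D10, -0.642 to -0.197 at D4 and 0.0518 to 0.108 per day for the trend. It turned the sign of STC2 at D7 against D0 (-0.939 to 0.148), which was above D0 without the D7 library of experiment 2, and of D7 against D4 (-0.549 to 0.5485), which was -0.549 without D7 of experiment 1 and -0.10 without D4 of experiment 2. The cause was not tested.

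The count of genes called depended on the model. At D4, D7 and D10 it was 0, 0 and 40, and became 38, 172 and 688 with the replicate block, 44, 113 and 383 with DESeq2, and 21, 93 and 371 without a filter. At D10 it was 25 with total counts only, 20 with at least 10 counts in every library, 0 with the compared groups only and 0 to 155 without 1 library. Listed genes called at D10 by the block, DESeq2 and no filter were 2, 1 and 1 for the IGF axis, 2, 2 and 2 for the stress responses, 4, 2 and 1 for hypoxia and 15, 15 and 18 for inflammatory factors. The latter fell from 3 to 1 with at least 10 counts in every library and to 0 with the compared groups only. Without 1 library these lists had 0, 0 to 2, 0 to 1 and 0 to 13 calls. The replicate block changed no call of STC2. Of the 10 genes most like STC1 or STC2, 2 (MMP1 and VNN3) were still among the first 5 with values centred on each experiment. Before D10, VNN3 was close to 0 CPM, and it passed the filter through D10, so its place here was in part fixed in advance. Either gene had at least 613 counts in every library, so depth limits these values less than the spread between 2 libraries a group.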
